A study of Homo sapiens with 2 samples.

Results

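Expression of 9 genes of the NRF2 antioxidant response and of the AKR1 branch of the aldo-keto reductases was read on arrays of Ca9-22 oral squamous cell carcinoma (OSCC) cells. They were AKR1B10, AKR1C1, AKR1C2, AKR1C3, NQO1, GCLM, HMOX1, TXNRD1 and SRXN1. A probe was counted as a member where it was no control probe and the gene name in the array files equalled one of these symbols. By this rule 8 of the 9 genes had a probe, out of 43317 gene names on the array, and AKR1C2 had none under its own name. The 8 genes had 11 probes with 20 spots, and all 11 probes were well above background on both arrays. Such a probe was found for 20246 gene names.

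The cells of the control group carried an empty lentiviral vector, and the cells of the DLEU1 group carried the same kind of vector with the full-length cDNA of the long noncoding RNA DLEU1, which had been amplified from another OSCC line, KON. Both groups were kept under 6 mg/ml blasticidin, the unit as the labels give it, over 2 weeks, and 100 ng of total RNA from each was labelled with Cy3. There was 1 array per group, so precision is limited by the number of arrays, and no test, p-value or replicate SD could be given. Level differences between the arrays include differences between the 2 cultures, which cannot be told apart from the effect of the vector. Because these were bulk samples, a different mix of cells and a different amount of RNA per cell also cannot be told apart.

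NRF2, the product of NFE2L2, is a transcription factor that KEAP1 and the ubiquitin ligase scaffold CUL3 hold at a low level in unstressed cells. Oxidants and electrophiles release it, and it then pairs with a small MAF protein and binds the antioxidant response element (ARE) of its target genes, from which BACH1 can displace it. Its targets make glutathione, reduce quinones and carbonyls, recycle thioredoxin and break down haem. In squamous cell carcinomas the pathway is often active through mutations of NFE2L2, KEAP1 or CUL3, and AKR1B10 and the AKR1C genes are among the human genes used as readouts of it.

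The stretches below show where AKR1C1 and AKR1C2 could not be separated. The probe A_24_P152968 is named AKR1C1 in the files, but its listed transcripts include NM_001135241 of AKR1C2, and it was the only probe (1) on the array that cited AKR1C2. Its first 29 bases were set beside the RefSeq sequences at the start of both genes (GRCh38.p14), each of which ends 50 bases after the start site. Lines give the 5′ to 3′ sequence, and the capital marks position 16, counted from 1 at the 5′ end of the probe, where the AKR1C2 sequence differed from the probe (T16C).
Probe A_24_P152968: aatggattcgaaataTcagtgtgtgaagc
AKR1C1, chr10:4963444-4963464, plus strand: aatggattcgaaatatcagtg
AKR1C2, chr10:5003808-5003836, minus strand: aatggattcgaaataCcagtgtgtgaagc
The probe equalled AKR1C1 at 21 of 21 bases in reach and AKR1C2 at 28 of 29. Upstream, the AKR1C1 and AKR1C2 windows shared an unbroken run of 245 bases. The level of A_24_P152968 may therefore sum over AKR1C1 and AKR1C2 transcripts, to an extent not tested, and AKR1C2 has no separate value here.

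Whole 60-base probes of AKR1C1, AKR1C3 and TXNRD1 are given to show which bases these probes held. For AKR1C1 this is the shared probe A_24_P152968, while the gene value used below is that of the brighter probe A_23_P257971. The printed probes stand on the hg19 coordinates of the array files, and whether each lies in an exon or a UTR was not analysed here.
AKR1C1, A_24_P152968, chr10:5005636-5005695, plus strand: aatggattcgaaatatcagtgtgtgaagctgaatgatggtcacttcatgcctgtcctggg
AKR1C3, A_23_P138541, chr10:5147789-5147848, plus strand: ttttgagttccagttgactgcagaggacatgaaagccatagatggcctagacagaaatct
TXNRD1, A_33_P3351120, chr12:104732949-104733008, plus strand: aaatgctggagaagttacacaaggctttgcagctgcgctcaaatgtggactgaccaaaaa
The AKR1C3 and TXNRD1 probes shared no run of 15 bases or more with a probe of another gene name (0 probes each). A_24_P152968 shared one with 1 probe, and the GCLM probe shared them with 10 probes, the longest being 23 bases. Probes were compared with probes here and not with transcripts. A lack of shared runs therefore does not show that a probe reads the RNA of its own gene only.

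The core of the ARE, TGACNNNGC, was searched on both strands of the RefSeq windows from 250 bases before to 50 bases after each start site. The table held 9 windows of 7 of the genes (AKR1C1, AKR1C2, AKR1C3, NQO1, GCLM, TXNRD1 and SRXN1), and AKR1B10 and HMOX1 were missing from it. Matches were found in 3 of the 9 windows, 1 of GCLM and both of TXNRD1, and in 13.3% of all 35116 windows (4687). They are printed with the matched letters in capitals on the strand of the gene.
GCLM, chr1:93909440-93909480, minus strand, first matched base at -34 from the start site: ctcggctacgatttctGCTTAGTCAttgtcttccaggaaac
TXNRD1, first start site, chr12:104215664-104215704, plus strand, at -99: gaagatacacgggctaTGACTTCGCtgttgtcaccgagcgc
TXNRD1, first start site, chr12:104215755-104215795, plus strand, at -8: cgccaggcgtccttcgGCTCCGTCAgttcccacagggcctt
TXNRD1, second start site, chr12:104286914-104286954, plus strand, at -102: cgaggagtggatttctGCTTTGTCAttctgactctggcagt
Such a match, or the lack of one, describes the letters in these windows only, and bases further away were not searched. Levels were not compared between genes with and without one.

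Each array held 62976 spots, and 47.6% (control vector) and 48.1% (DLEU1 vector) of the probes were well above background. Levels are log2 processed signals relative to the 75th percentile of the array's own non-control probes, and a difference is the DLEU1 level minus the control level on that scale. A band of spots (columns 33 to 40, rows 1 to 112) stood apart on the DLEU1 vector array: 35.5% of its spots that were lit on the control vector array were at least 2-fold lower there, against 13.5% elsewhere, and it held 0 of the 20 member spots. DLEU1 was read first as a check of the labels. On A_23_P151337, the probe for transcript NR_002605, the control vector array gave a log2 level of 3.17 and the DLEU1 vector array one of 5.91, a difference of 2.74, and the other probes differed by 0.85 and 0.54. All 7 squamous epithelial markers were detected on both arrays (KRT5, KRT14, TP63, KRT6A, DSG3, PERP and CDH1). At least 2-fold higher with the DLEU1 vector were 6 of the 7, beside 9.18% of all genes detected on both arrays. Their differences ran from 0.96 for TP63, the 1 under 2-fold, to 2.91 for KRT6A, and 1 CDH1 spot lay in the band. Of 4 markers of other cells, the collagen gene COL1A1 went from a level of 0.47 to 4.47, a difference of 3.99, VIM differed by -0.97, PTPRC by 0.45, and PECAM1 was not well above background on either array. The part of these marker differences in the values of the antioxidant genes was not tested.

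Only technical spread could be measured. Among 282 detected probes with repeated spots, single spots had an SD of 0.08 in the log2 difference. Among probes that share a gene the pooled SD was 0.47 (4674 genes) and the median SD 0.23. The error that the scanner software assigned to a single member difference was 0.20 to 0.21, which follows almost wholly from its preset multiplicative error of 10%. None of these holds the variation between cultures.

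**Figure D1:**
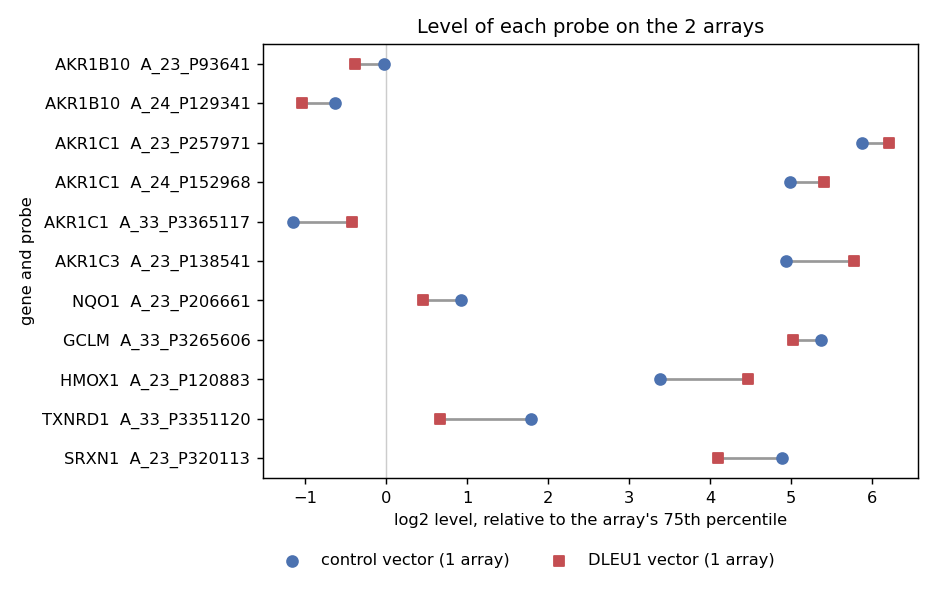
Log2 level (x axis, relative to the 75th percentile of the array) of each of the 11 probes of the 8 genes (y axis) on the control vector array (circles) and the DLEU1 vector array (squares), 1 array each. Lines join the arrays within a probe, and levels of different probes are not comparable. The AKR1C1, AKR1C3 and HMOX1 probes lay further right with the DLEU1 vector, and the AKR1B10, NQO1, GCLM, TXNRD1 and SRXN1 probes further left.

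The AKR1 genes encode NADPH-dependent enzymes that reduce aldehydes and ketones. In the main setting the AKR1C probes were brighter with the DLEU1 vector and the AKR1B10 probes were dimmer. AKR1C1, which inactivates progesterone by reducing its 20-keto group, had 3 probes. On A_23_P257971 (hg19 chr10:5019910-5019969, plus strand) the processed signals were 14285.7 (control vector) and 17420.9 (DLEU1 vector), a log2 difference of 0.32. On A_24_P152968, which AKR1C2 shares, the signals were 7677.21 and 9999.77, a difference of 0.42. On A_33_P3365117 (chr10:5011936-5011995, transcript ENST00000380859) they were 109 and 176.748, a difference of 0.73. All 3 probes were brighter on the DLEU1 vector array, with a mean difference of 0.49 ± 0.215 (SD over 3 probes, which are no replicates of the culture). AKR1C1 was taken at its brightest probe, 0.32 or 1.25-fold higher, and this direction turned to -0.14 when the arrays were scaled on the spike-in RNA.

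AKR1C3 makes testosterone and prostaglandin F from their keto precursors. Its only probe read 7438.37 in control vector cells and 12896.5 in DLEU1 vector cells, so the log2 level went from 4.94 to 5.77. This was a difference of 0.83, or 1.78-fold higher, above the between-probe SD of 0.47 and short of 2-fold. It was 1.05 with quantile normalization and 1.09 with loess, which put it past 2-fold, and 0.37 with spike-in scaling.

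AKR1B10, which reduces retinal and lipid aldehydes, was read by 2 probes of transcript NM_020299. On A_23_P93641 (chr7:134225939-134225998, plus strand) the signals were 237.489 (control vector) and 180.254 (DLEU1 vector), a difference of -0.36 or 1.28-fold lower. On A_24_P129341 (chr7:134225799-134225858) it was 156.771 and 114.907, a difference of -0.41. Both probes were dimmer on the DLEU1 vector array, by less than the between-probe SD. AKR1C3 and AKR1B10 differed from each other by 1.19 on the log2 scale, and by 1.11 to 1.43 under the 14 other ways of processing that were tried. Settings that only shift the arrays against each other could not change this gap.

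The AKR genes beside them on the chromosomes were read as well. AKR1C4, the liver-type enzyme of the cluster on chromosome 10, had log2 levels of 2.54 and 3.35, a difference of 0.81. This was read on 1 of its 2 probes, the 1 detected on both arrays. AKR1B15, which lies next to AKR1B10 on chromosome 7, had levels of -1.56 and -2.02, a difference of -0.46, and AKR1B1, the aldose reductase of the polyol pathway, had a difference of -0.45. These genes are close paralogs of the members, so probes may also read RNA of a neighbour, and AKR1E2 was not well above background on either array. Of 8 other aldo-keto reductase genes, 6 were detected on both arrays, 2 were higher and 4 lower, with a median difference of -0.28. None passed 2-fold (0 each way), beside 9.18% of all genes higher and 9.78% lower. The array also carried 6 probes for 5 noncoding transcripts named after the members (such as lnc-AKR1C2-3, lnc-HMOX1-1 and lnc-TXNRD1-1), and 0 of them were well above background on either array.

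NQO1 reduces quinones in a single step of both electrons and is a standard readout of NRF2. Its probe A_23_P206661 (chr16:69744274-69744333, minus strand) read 458.303 in control vector cells and 324.425 in DLEU1 vector cells. The log2 level went from 0.92 to 0.46, a difference of -0.46 or 1.38-fold lower. This was more than 2 software errors and slightly under the between-probe SD.

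GCLM is the modifier subunit of glutamate-cysteine ligase, the enzyme of the first step of glutathione synthesis. Its probe A_33_P3265606 (chr1:94352810-94352869, minus strand) read 9995.31 in control vector cells and 7678.66 in DLEU1 vector cells, log2 levels of 5.37 and 5.02. The difference was -0.34, or 1.27-fold lower, and it shrank to -0.09 with loess. GCLC, the catalytic subunit of the same enzyme, differed by 0.18 (levels 3.36 and 3.54), and by -0.28 with spike-in scaling. The cystine carrier SLC7A11 differed by -0.37.

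HMOX1, the inducible haem oxygenase, which breaks haem down to biliverdin, iron and carbon monoxide, had the most spots of the genes. Its probe A_23_P120883 (chr22:35790122-35790181, plus strand) was spotted 10 times on each array. The control vector signals ran from 2380.88 through a median of 2543.05 to 2643.8, and the DLEU1 vector signals from 4818.74 through 5277.63 to 5481.27. The 2 ranges did not overlap. How often the ranges of other repeatedly spotted probes were apart was not counted. The 10 spots are copies of the same probe, so they hold none of the between-probe spread. The log2 levels were 3.39 and 4.47, a difference of 1.08 or 2.12-fold higher, with an SD of 0.0352 and a range from 1.03 to 1.15 over the 10 spots. Spots of one array share the RNA, so this spread is technical only. The difference was 0.97 with median scaling and 0.62 with spike-in scaling, both under 2-fold.

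**Figure D2:**
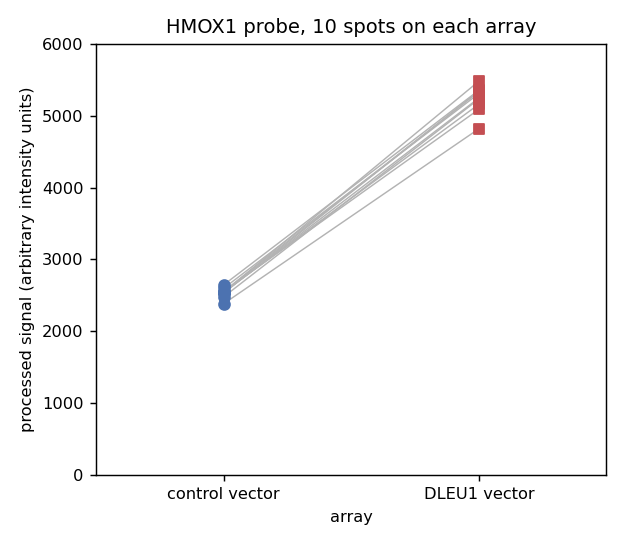
Processed signal (y axis, intensity in arbitrary units, starting at 0) of the 10 spots of the HMOX1 probe on the control vector array (circles) and the DLEU1 vector array (squares), with lines joining spots at the same position. Every spot was between 2380.88 and 2643.8 on the first array and between 4818.74 and 5481.27 on the second.

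TXNRD1, the cytosolic selenoprotein that reduces thioredoxin with NADPH, and SRXN1, which restores overoxidised peroxiredoxins, were the members with the lowest differences. The TXNRD1 probe read 836.745 in control vector cells and 373 in DLEU1 vector cells, log2 levels of 1.79 and 0.66. This was a difference of -1.13, or 2.19-fold lower. It stayed past 2-fold under the 14 other ways of processing, from -1.59 with spike-in scaling to -1.02 with normexp. Some of these could not move it. The filters on dim probes and the mean over probes left it at -1.13, because TXNRD1 has 1 probe and that probe was detected. The SRXN1 probe A_23_P320113 (chr20:627563-627622, minus strand) read 7153.53 and 4039.67, log2 levels of 4.88 and 4.10. The difference was -0.79, or 1.73-fold lower, and it passed 2-fold with spike-in scaling (-1.25) but under none of the 13 others. Each of these genes had 1 probe with 1 spot, so neither difference was repeated on its array.

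Set together, 3 genes were higher with the DLEU1 vector (HMOX1, AKR1C3 and AKR1C1) and 5 were lower (GCLM, AKR1B10, NQO1, SRXN1 and TXNRD1). At least 2-fold higher was 1 of the 8, HMOX1, where 9.18% of all genes detected on both arrays were (1858 of 20246). At least 2-fold lower was 1 of the 8, TXNRD1, where 9.78% of all genes were (1981). With 8 genes, 1 call each way is close to these shares. The median difference of the 8 genes was -0.35, and that of all genes -0.07, with an SD over all genes of 0.90. The differences of AKR1C1, GCLM, AKR1B10 and NQO1 lay between the 25th and the 75th percentile of all genes (-0.52 and 0.41). HMOX1 and AKR1C3 lay between the 75th and the 95th percentile (1.40), and SRXN1 and TXNRD1 between the 5th (-1.34) and the 25th.

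The genes spanned 2.21 on the log2 scale, from TXNRD1 to HMOX1. A constant shift between the arrays leaves this gap as it is, and under the settings that bend the scale it ran from 2.06 with normexp to 2.35 with quantile normalization. Differences of 5 genes (HMOX1, AKR1C3, NQO1, SRXN1 and TXNRD1) were larger than 2 software errors, and those of 4 (without NQO1) were larger than the between-probe SD. The shares of all genes past these cutoffs were not counted. Of all genes, 25% lay below -0.52 and 25% above 0.41, so differences of such size were common and do not set the members apart. In order of difference, the neighbours HMOX1 and AKR1C3 were less than the between-probe SD apart. So was each neighbouring pair from GCLM through AKR1B10, NQO1 and SRXN1 to TXNRD1.

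**Figure D3:**
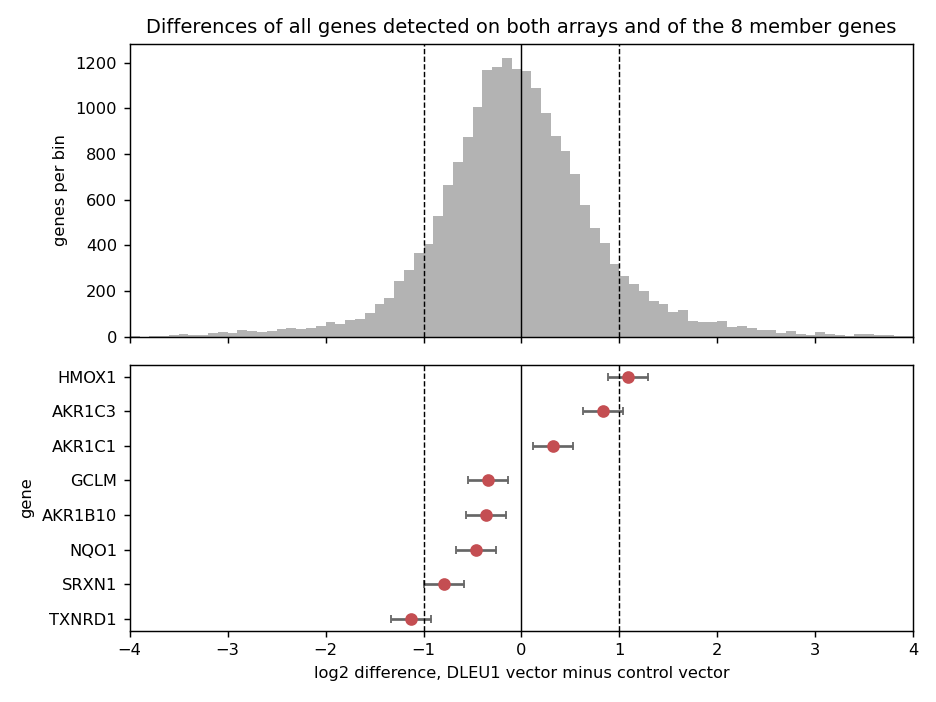
Top, number of genes per bin of 0.1 (y axis) by log2 difference (x axis, DLEU1 vector minus control vector) for the genes detected on both arrays, of which 50 lie outside the drawn range. Bottom, differences of the 8 member genes with the software error of the difference as bars, and dashed lines at 2-fold. HMOX1 (1.08) and TXNRD1 (-1.13) were the members past the dashed lines.

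The lists that follow are counted in the main setting. Each count past 2-fold is to be read beside the shares of all genes detected on both arrays, 9.18% higher and 9.78% lower. Regulators of the pathway were read through 13 genes. NFE2L2, which encodes NRF2, had 1 probe, not well above background on either array, so no difference is given for it. KEAP1, its inhibitor, had levels of 4.32 and 4.37, a difference of 0.05 that turned negative under 3 of the 14 other settings. Of 11 regulators detected on both arrays 4 were higher and 7 lower, and NFE2L3, a relative of NRF2, was the 1 past 2-fold, at levels of 2.97 and 1.61, a difference of -1.36. MAFK, a small MAF partner, was above background with the control vector only, at least 45.2-fold higher there, and its single spot lay in the band of low spots on the DLEU1 vector array, and the part of the band in this bound was not tested. The 2 probes of BACH1, the repressor that competes at AREs and whose targets include HMOX1, went opposite ways, 0.62 on the brighter and -0.37 on the other. The median of the regulators was -0.20, and it was 0.03 with quantile normalization, 0.04 with loess and 0.07 with the median of the nearest spots taken off.

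Glutathione genes other than GCLM had no common direction. Of 13 listed genes 12 had a probe and 9 were detected on both arrays, 6 higher and 3 lower, with a median of 0.06 that was -0.05 with median scaling and -0.40 with spike-in scaling. GSTA4, a transferase that conjugates the lipid aldehyde 4-hydroxynonenal, had levels of -1.57 and 0.71, a difference of 2.28 or 4.86-fold higher. This was read on 1 of its 2 probes, the 1 detected on both arrays, and it was 1.63 with normexp. GSTM2 was detected with the DLEU1 vector only, at least 2.16-fold higher. GSR, the reductase that returns oxidised glutathione, had levels of 2.09 and 1.17, a difference of -0.92. The 6 genes that supply NADPH, which NQO1, TXNRD1 and the AKR1 enzymes consume, were all detected, 4 higher and 2 lower, none past 2-fold (0 each way). Their median of 0.24 became -0.22 with spike-in scaling.

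Around TXNRD1 and SRXN1, 3 of the 4 listed genes of the thioredoxin system were lower. Thioredoxin itself, TXN, the substrate of TXNRD1, had levels of 8.66 and 7.99, a difference of -0.67. The peroxiredoxins PRDX1 and PRDX6 differed by -0.27 and -0.49, and PRDX1 alone of these turned positive, at 0.01 with loess. TXNIP, which binds thioredoxin and restrains glucose uptake, went the other way, with levels of 4.52 and 6.92, a difference of 2.40 or 5.28-fold higher. In the wider list of antioxidant enzymes, 11 of 12 genes were detected on both arrays and 9 were lower, with a median of -0.66. At least 2-fold lower were 4 of the 11, beside 9.78% of all genes, namely the superoxide dismutases SOD2 (-1.49) and SOD1 (-1.06) and the peroxiredoxins PRDX3 (-1.19) and PRDX4 (-1.12). PRDX5 (1.09) was the 1 gene of that list at least 2-fold higher, beside 9.18% of all genes. With loess, SOD1, PRDX3 and PRDX4 came under 2-fold (-0.78, -0.98 and -0.85). Of the 14 other settings, SOD1 was at least 2-fold lower under 10, PRDX4 under 11, PRDX3 under 13 and SOD2 under 14. PRDX5 was at least 2-fold higher under 12, and its difference was 0.62 with spike-in scaling. PRDX4 had 3 probes, of which 1 was detected on both arrays. As with TXNRD1, each of these enzymes past 2-fold was read by 1 probe detected on both arrays. The filters on dim probes and the mean over probes therefore could not move them. The rounded series values and leaving out the band of low spots could move them only slightly. Part of these counts of settings was thus fixed in advance.

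Genes of iron and haem handling beside HMOX1 were all detected (7 of 7), 1 higher and 6 lower, with a median of -0.26. ABCB6, a porphyrin transporter, had levels of 0.04 and 1.53, a difference of 1.49. SLC48A1, a haem transporter of the lysosome, had levels of 4.19 and 2.80 on its brighter probe, a difference of -1.39. Its other probe differed by -0.67, under 2-fold. The biliverdin reductases BLVRA and BLVRB, which take the product of HMOX1, differed by -0.26 and -0.18, and BLVRB turned positive with quantile normalization and loess. The ferritin chains FTL and FTH1 differed by -0.66 and -0.02, and FTH1 changed sign under 4 of the other settings.

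Of 15 other detoxification genes 13 were detected on both arrays, 8 higher and 5 lower, with a median of 0.20 that was -0.26 with spike-in scaling. The conjugate exporters ABCC2 and ABCC3 were at least 2-fold lower. ABCC2 had levels of -1.53 and -3.63, a difference of -2.10, and ABCC3 had levels of -1.60 and -3.43, a difference of -1.83. Both were dim, and with normexp their differences were -0.85 and -0.73. ALDH3A1, an aldehyde dehydrogenase, was detected with the DLEU1 vector only, at least 2.03-fold higher. Over all 8 lists 67 of 78 genes were detected on both arrays. Past 2-fold were 4 higher genes (5.97%) and 8 lower genes (11.9%), beside 9.18% and 9.78% of all genes, and their median was -0.18 beside -0.07.

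**Figure D4:**
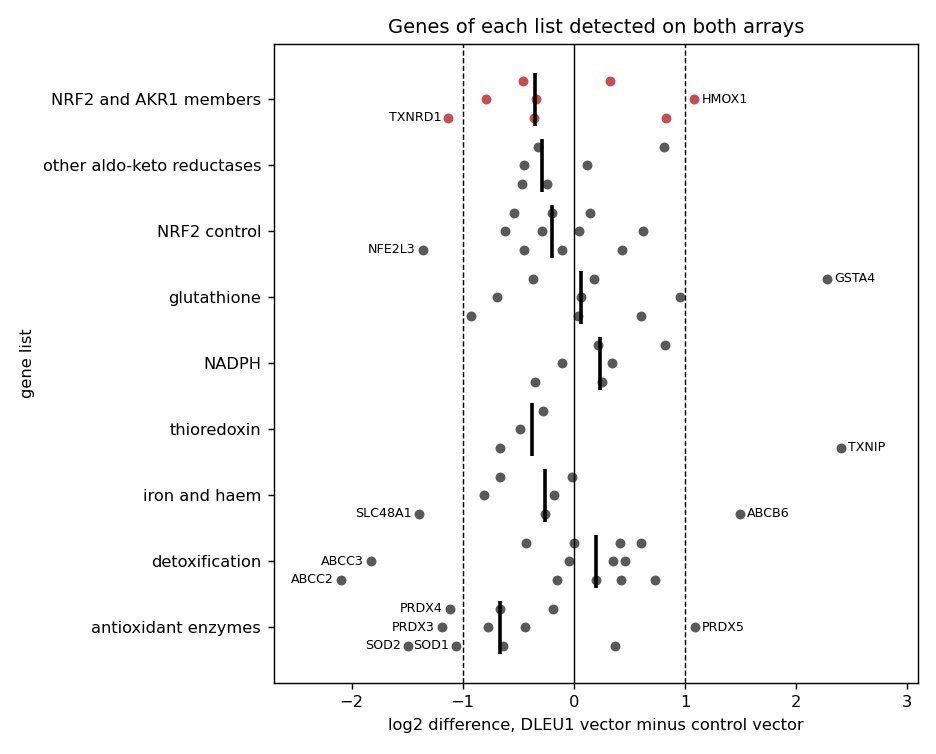
Log2 difference (x axis, DLEU1 vector minus control vector) of each gene detected on both arrays, by list (y axis). Each point is 1 gene, black bars are list medians, dashed lines mark 2-fold, and genes past them are named. In each list genes lay on both sides of 0, and the antioxidant enzymes had the lowest list median (-0.66).

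The scaling between the arrays moved all members together. Spike-in scaling, which makes the spike-in RNA equal on both arrays, moved the median over all genes by -0.46, the median scaling by -0.11 and the 75th percentile of probes detected on both arrays by 0.11. Relative to the median of all genes, the members ran from -1.06 for TXNRD1 to 1.15 for HMOX1 in the main setting. With spike-in scaling 15.9% of all genes past 2-fold were higher, against 48.4% in the main setting, and 2 members were higher and 6 lower. Under the other 13 settings that gave member values the same 3 members were higher and the same 5 lower. Some of these settings could not move a member value.

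**Figure D5:**
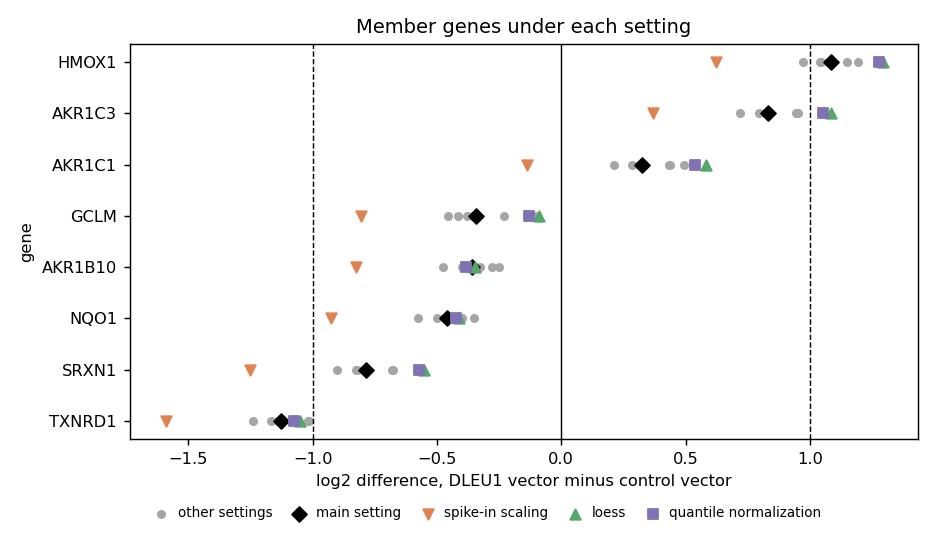
Log2 difference (x axis, DLEU1 vector minus control vector) of each member gene (y axis) under the main setting (diamonds), spike-in scaling (downward triangles), loess (upward triangles), quantile normalization (squares) and the others (small points), with dashed lines at 2-fold. AKR1C1 was the gene that crossed 0, at -0.14 with spike-in scaling, and TXNRD1 stayed below the lower dashed line throughout.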

How the data were processed

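Expression of Ca9-22 cells with a control vector or a DLEU1 vector was measured on Agilent SurePrint G3 1-colour arrays, 1 per group. The deposited intensity values were made with Feature Extraction 10.7.3.1, as per the file headers, with a surface fitted over the array taken off as background, multiplicative detrending, and surrogate values for dim spots. GeneSpring was then used by the authors, with settings not given in the sources used here. The intensity values of the deposited series table were the same signals, rounded, within 0.497%. Neither was normalized between arrays.

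Control spots and outlier spots (84 and 103) were left out, log2 signals were averaged per probe, and the 75th percentile over non-control probes (7.92 and 7.88) was subtracted. A probe counted as detected where most of its spots were well above background, and each gene was represented by the brightest of its probes detected on both arrays. The count threshold was 2-fold. For a gene detected on 1 array, the fold is a lower bound against its own dim signal or, if higher, the lowest signal that was detected. Processing used Python 3.11.15, pandas 2.3.3, R 4.3.3 and limma 3.58.1 and was tested on simulated data.

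The members and lists were chosen with earlier results of these data known. All members, DLEU1, NFE2L2, KEAP1, neighbouring AKR genes, list genes past 2-fold (up to 4 each way) and those detected on 1 array were named by rule. BACH1, GCLC, SLC7A11, GSR, TXN, PRDX1, PRDX6, BLVRA, BLVRB, FTL and FTH1, and the cell markers, were named besides, after their values were seen.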

Additional observations from a re-analysis of the deposited data

How the results depend on the processing

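Of 112 values of single member genes under 14 other settings, 71 moved by less than the spot SD of 0.08, 41 moved by more and 1 changed sign. Part of the 71 was fixed in advance. The filters on dim probes could not move any member, since all member probes were detected with signals of at least 109. The mean over probes could move only AKR1B10 and AKR1C1. The series values were the same signals, rounded, and the band of low spots held no member spot. The median difference of the 8 genes (-0.35) became -0.24 with the 75th percentile over probes detected on both arrays, -0.46 with median scaling, -0.26 with quantile normalization, -0.22 with loess, -0.81 with spike-in scaling and -0.21 with the median of the 100 nearest spots taken off. Members at least 2-fold higher numbered 1, but 0 with median scaling, spike-in scaling or a 3-fold threshold, and 2 with quantile normalization, loess or a 1.5-fold threshold. Members at least 2-fold lower numbered 1, but 2 with spike-in scaling or a 1.5-fold threshold and 0 at 3-fold. Of all genes, 1858 were at least 2-fold higher and 1981 lower. The counts of all genes were 1566 and 2449 with median scaling, 1948 and 1749 with quantile normalization, and 2054 and 1652 with loess. They were 924 and 4875 with spike-in scaling, and 4232 and 3807 with no filter on dim probes. At 1.5-fold they were 3731 and 4459, and at 3-fold 774 and 671. The higher genes numbered 1121 with normexp and 1026 where both arrays had to reach a signal of 100. Thresholds and the filter change the counts by construction, and the cause of the other changes was not tested. Spike-in scaling rested on 8 probes.

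No paired analysis was possible because each group has 1 array (nor was an array left out). The preset software error and the spread over spots hold no variation between cultures. The AKR1B10 probes and the third AKR1C1 probe were the dimmest of the members (signals of 109 to 237.489), and AKR1C2 had no value of its own.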
